A study of Gallus gallus with 6 samples.

Results

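Active and repressive histone marks were compared in unstimulated chick ectoderm, using the control libraries alone. The members are the 32725 H3K27ac and 20827 H3K27me3 peaks that the peak caller Homer reported for control tissue, or 53552 of the 123475 Homer peaks in the 4 ChIP libraries of the study. The study asked how FGF signalling changes the chromatin of posterior pre-placodal ectoderm (pPPR), the tissue from which the inner ear and the epibranchial ganglia arise. Pieces of pPPR were taken from chick embryos at stage HH6 and cultured for 6 h in DMEM, either alone (control, Cnt) or with FGF2 added at 0.25 ng/µl. Each condition was a pool of 100 tissues. Nano-ChIP-seq, a protocol for small numbers of cells that amplifies the chromatin, was run for H3K27ac and for H3K27me3 beside an input library. No strain or genotype is given in the labels, and no transgene is mentioned. There was 1 library per mark and condition. No spread between replicates exists, no difference can be tested, and every comparison describes these libraries.

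Acetylation and trimethylation of lysine 27 of histone H3 cannot sit on the same histone tail. H3K27ac is laid down by the acetyltransferases CBP and p300 and marks active enhancers and promoters, whereas H3K27me3 is laid down by Polycomb repressive complex 2 and marks genes that are held silent, many of them developmental regulators. Nucleosomes with different marks can lie side by side on one chromosome, on the other allele or in other cells, and a pool of tissues does not tell these cases apart. The chick genome is made of a few large macrochromosomes, many small gene-rich microchromosomes and the sex chromosomes Z and W, so the number of peaks per length can be set against chromosome size.

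On chromosomes 1 to 28 and Z, which hold 31442 of the H3K27ac and 19571 of the H3K27me3 peaks, nearly all peaks had the same width. Of the full lists, 32418 H3K27ac peaks and 20429 H3K27me3 peaks were 751 bp wide. The H3K27ac peaks covered 24.5 Mb and the H3K27me3 peaks 15.6 Mb. The lists hold positions without heights or read numbers, so that read depth and its precision are unknown. Intervals given are 95% intervals, take the peaks as independent and reflect counting error alone. As a reference for chance placement, all H3K27me3 peaks of a chromosome were moved together by a random distance along it, 1000 times, with the end joined to the start. The mean and the lowest and highest value of these shifts are given as a description, without a p-value.

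The distance from each H3K27me3 peak to the nearest H3K27ac peak was measured first, from edge to edge. The median distance was 13.2 kb (12.8 to 13.6 kb, n = 19571 peaks), against a mean of 16.6 kb over the shifts and a range of 15.4 to 17.9 kb. The lower and upper quartiles were 2.87 and 38.7 kb, and the most distant peak lay 1690 kb away. For 14.3% of the H3K27me3 peaks (13.9 to 14.8%, Wilson) the distance was 0, because the peak shared at least 1 bp with an H3K27ac peak. These were 2807 peaks, 2.98 times the mean of the shifts, in which 4.81% overlapped (4.32 to 5.31%). Seen from the active mark, the 2807 overlaps were 8.93% of the H3K27ac peaks, against 2.99% in the shifts.

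Just outside these overlaps, H3K27me3 peaks were fewer than in the shifts. Between 1 bp and 1 kb from an H3K27ac peak there were 708 H3K27me3 peaks, 3.62% of all, where the shifts placed 5.77% (5.22 to 6.26%). From 1 to 2 kb the number was 0.845 times, and from 2 to 5 kb 0.909 times, that of the shifts. Between 5 and 50 kb the ratio was 0.970 to 0.985 in each range. Beyond 50 kb there were again fewer peaks than in the shifts, with 10.8% against 12.9% from 50 to 100 kb and 8.66% against 11.1% farther away. Among the H3K27me3 peaks that overlapped no H3K27ac peak, 20.3% (19.7 to 20.9%) lay within 5 kb of one, below each of the 1000 shifts, which gave 21.2 to 23.6%. The ranges divide the same total, so more overlap by itself lowers the other shares. Leaving out overlapping peaks also removes more observed than shifted peaks, so nothing is read from the 20.3%. Outside overlap the lowest ratio was 0.627, from 1 bp to 1 kb. Relative to the shifts, H3K27me3 peaks thus lay on H3K27ac peaks more often and within 1 kb beside them less often.

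**Figure D1:**
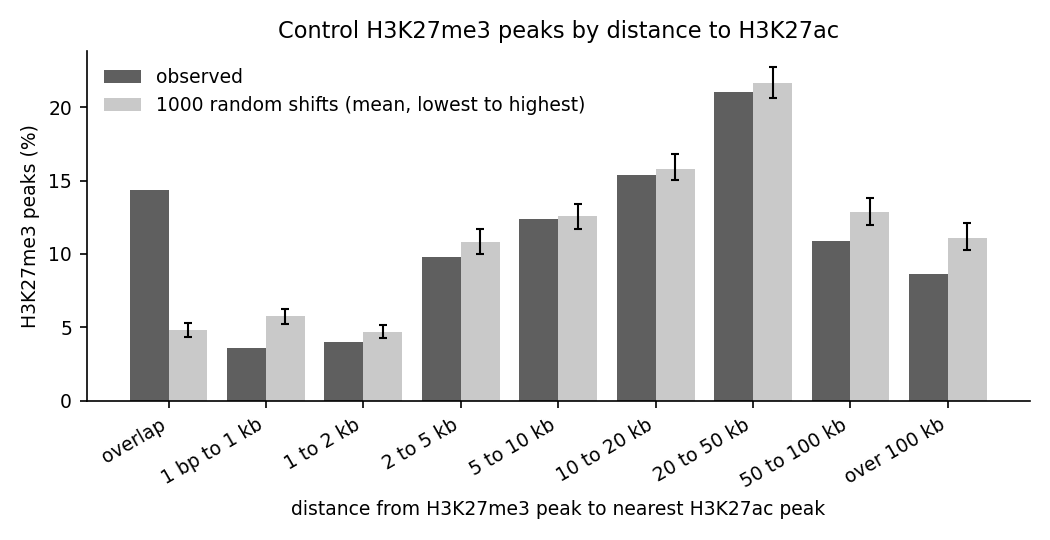
Share of the 19571 control H3K27me3 peaks in each range of distance to the nearest H3K27ac peak (dark bars) beside the mean of 1000 random shifts (light bars, lines from the lowest to the highest shift). Overlap stood at 14.3% against 4.81% in the shifts, and the range from 1 bp to 1 kb at 3.62% against 5.77%.

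Within overlapping pairs, the peaks of both marks lay almost on top of each other. The median distance between the centres of the 2807 pairs was 89 bp. In 912 pairs (32.5%) the centres were at most 50 bp apart, in 1507 (53.7%) at most 100 bp and in 2114 (75.3%) at most 200 bp. Counted in steps of 100 bp, 1494 H3K27me3 peaks had their centre less than 100 bp from that of an H3K27ac peak, 12.0 times the mean of 124 over the shifts. The ratio fell to 4.94 in the next step and crossed 1 between 400 and 500 bp. At 700 to 800 bp, where neighbouring peaks just cease to overlap, 42 peaks stood against a mean of 126 in the shifts and a range of 94 to 174. Since the peaks are about as wide as the spacing of a few nucleosomes, a shared position at this scale does not place both marks on one nucleosome.

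**Figure D2:**
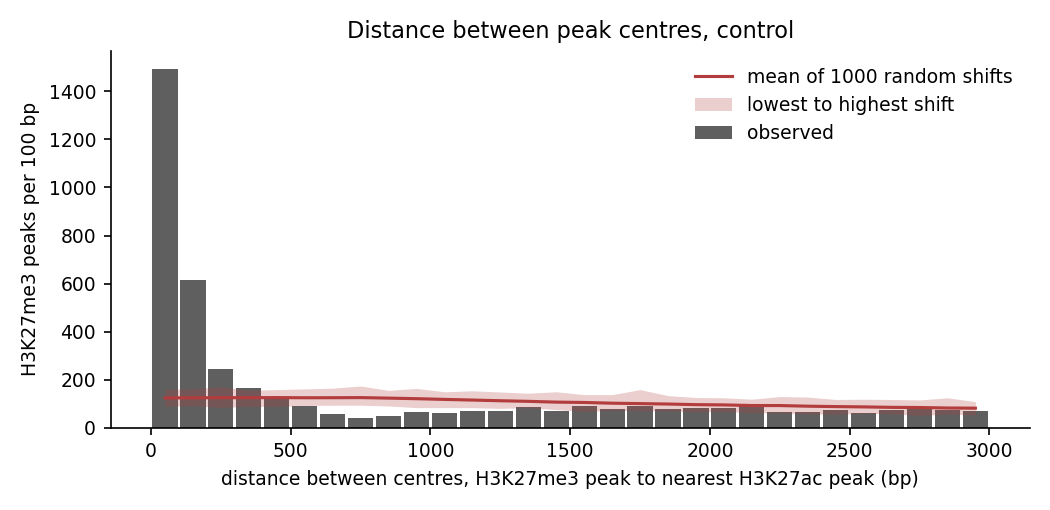
Number of control H3K27me3 peaks by the distance between their centre and that of the nearest H3K27ac peak, in steps of 100 bp (bars), beside the mean of 1000 shifts (line) and their range (band). The first step holds 1494 peaks against a mean of 124. All steps from 500 to 1300 bp lie below the band, and so does that from 1400 to 1500 bp.

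Each mark was also set beside itself. The median distance from an H3K27ac peak to the next H3K27ac peak was 4.71 kb (n = 31442), and 51.8% had one within 5 kb. From one H3K27me3 peak to the next it was 15.3 kb (n = 19571), and 21.6% had one within 5 kb. H3K27ac peaks were thus packed closely, whereas the distance between H3K27me3 peaks was similar to their distance from the active mark. Of all neighbouring pairs of peaks along the chromosomes, 38.5% joined unlike marks, against 36.2% in the shifts (35.5 to 37.1%). This share includes the overlapping pairs, which were themselves more frequent than in the shifts, and it was not measured without them.

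The overlapping H3K27ac peaks were not spread evenly over the authors' list. When the control H3K27ac list was divided into 10 equal parts in the order deposited, a division chosen after the data were seen, 3.51% of the peaks in the first part overlapped an H3K27me3 peak. The share was 8.65% in the fifth part, reached 13.8% in the ninth and was 10.4% in the last. What the order stands for is not stated, but the share of peaks that a second caller, MACS2, also reported fell from 95.3% in the first part to 10.6% in the last. H3K27ac peaks that MACS2 also called overlapped H3K27me3 in 7.25% of cases (6.90 to 7.61%, n = 20753) and those it did not call in 12.0% (11.3 to 12.8%, n = 7336). In the H3K27me3 list the corresponding share lay between 12.3 and 16.4% in all 10 parts, although the share also called by MACS2 fell from 32.3 to 0.170%. The first part of that list kept 1376 peaks on these chromosomes, and the others 1962 to 2070. H3K27me3 peaks overlapped H3K27ac in 14.7% of cases where MACS2 called them as well (n = 832) and in 14.9% where it did not (n = 15213).

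**Figure D3:**
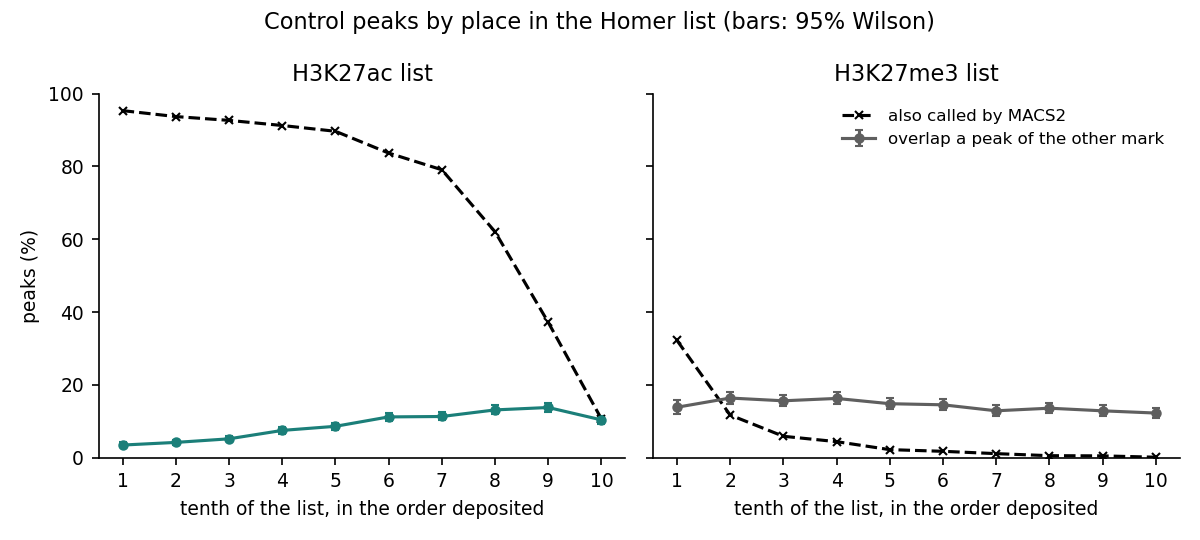
Share of control peaks that overlap a peak of the other mark (solid, 95% Wilson) and share that MACS2 also called (dashed), by place in each Homer list, in 10 equal parts as deposited. In the H3K27ac list the first share went from 3.51 to 13.8% between the first and the ninth part while the second fell from 95.3 to 10.6% by the last, and in the H3K27me3 list overlap stayed between 12.3 and 16.4%.

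The peak caller moved the overlap more than any other choice. With MACS2 peaks of both marks, 33.1% of the H3K27me3 peaks overlapped H3K27ac at a median distance of 4.77 kb. However, MACS2 reported only 1097 control H3K27me3 peaks, of which 174 with rounded positions were left out. The authors set MACS2 to call broad peaks, whereas nearly all Homer peaks were 751 bp wide. Overlap and edge distance are thus not like measures between the callers. The ratio of the MACS2 overlap to the shifts, 2.91, was close to that of Homer, but the ratio was 2.15 with MACS2 H3K27ac and Homer H3K27me3 peaks.

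The pairing of marks was compared across conditions, with 100 shifts for each further pair of lists. Control H3K27me3 peaks overlapped control H3K27ac peaks in 14.3% of cases, 2.98 times the mean of the 1000 shifts above, and the H3K27ac peaks of FGF2-treated tissue in 10.2% (9.75 to 10.6%), 1.85 times. For the H3K27me3 peaks of FGF2-treated tissue, overlap with control H3K27ac was 7.46% (7.17 to 7.76%), 1.57 times, and overlap with H3K27ac of the same tissue 20.1% (19.6 to 20.5%), 3.72 times. Marks of the same condition thus coincided more often than marks of different conditions. Both lists of a condition come from the same pool, had the same treatment and were called against the same input. What pool, FGF2 treatment and input each contributed cannot be told apart.

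H3K27ac and H3K27me3 differed in how they followed chromosome size. On chromosomes 1 to 5 there were 23.2 H3K27ac and 20.3 H3K27me3 peaks per Mb, close to 1 for 1. On chromosomes 6 to 10 the numbers were 36.2 and 19.1 per Mb, and on the microchromosomes 11 to 28 they were 64.6 and 20.4 per Mb. The H3K27ac density of chromosomes 11 to 28 was therefore 2.79 times that of chromosomes 1 to 5, and the H3K27me3 density 1.00 times. Chromosome Z was low in both marks, with 14.2 H3K27ac and 12.9 H3K27me3 peaks per Mb. Lengths are those up to the last peak on each chromosome and sum to 1001.5 Mb.

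Chromosome 26 had the most H3K27ac peaks per Mb (119), followed by chromosomes 24 (109) and 23 (108). The fewest were on Z, on chromosome 2 (20.8) and on chromosome 1 (22.3), so that density ranged over 8.38-fold. H3K27me3 ranged over 2.30-fold only, from 12.9 per Mb on Z, 14.8 on chromosome 11 and 16.9 on chromosome 25 to 27.2 on chromosome 22, 28.2 on chromosome 16 and 29.6 on chromosome 27. The value of chromosome 16 rests on 15 peaks in 0.531 Mb. Across the 29 chromosomes, which share the same libraries and differ in base composition, the rank correlation of density with length was -0.883 for H3K27ac and -0.381 for H3K27me3. That between the densities of the marks was 0.319. With MACS2 peaks the ratio of chromosomes 11 to 28 over 1 to 5 was 2.68 for H3K27ac but 1.70 for H3K27me3, so that the even density of H3K27me3 was seen with Homer only.

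**Figure D4:**
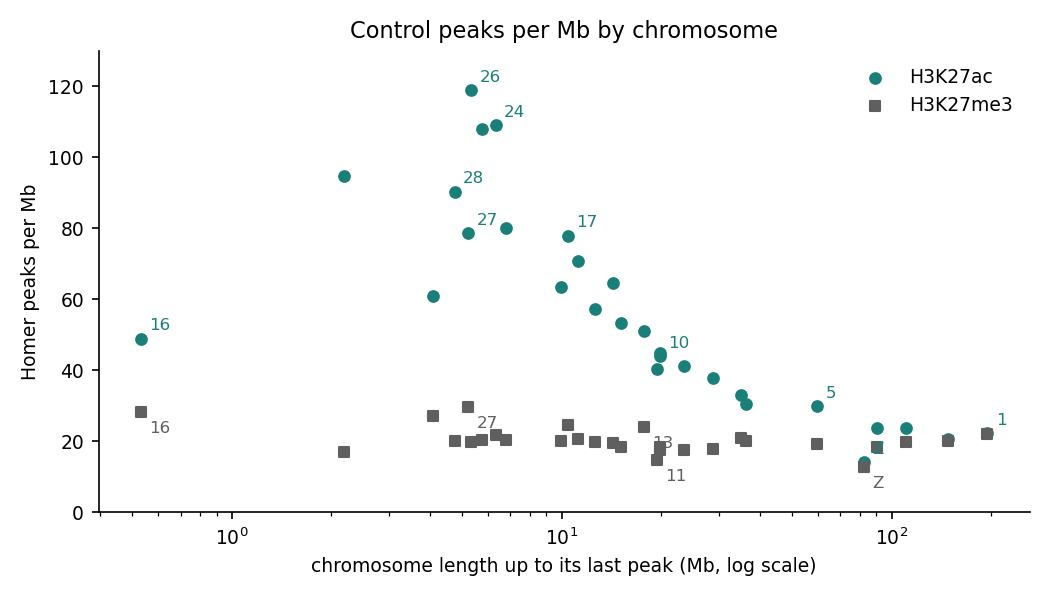
Homer peaks per Mb against chromosome length (log axis) for H3K27ac (circles) and H3K27me3 (squares) in control, 1 point per chromosome. H3K27ac rises from 14.2 per Mb on Z to 119 on chromosome 26, while H3K27me3 stays between 12.9 and 29.6.

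Across the 4 groups of chromosomes, the share of overlap rose with the density of H3K27ac. It was 12.5% of the H3K27me3 peaks on chromosomes 1 to 5 (n = 12279), 15.8% on 6 to 10 (n = 2738), 21.0% on 11 to 28 (n = 3494) and 9.53% on Z (n = 1060). By chromosome it went from 9.53% on Z to 38.1% on chromosome 26. Single chromosomes did not all keep the order. Chromosome 28, with 90.3 H3K27ac peaks per Mb, had 19.8%, and chromosome 9, with 41.2 per Mb, had 20.2%. The shifts moved in the same order, with means of 3.47%, 5.37%, 9.88% and 2.13%, and the observed share lay above the highest shift in all 4 groups. As a multiple of the mean shift, overlap went the other way, lowest on chromosomes 11 to 28 and highest on Z. The median distance fell from 16.4 kb on chromosomes 1 to 5 to 11.2 kb and 5.13 kb on the smaller groups, where the shifts gave means of 21.5, 13.4 and 5.88 kb. On Z the median of 35.4 kb lay inside the range of the shifts (29.2 to 49.3 kb).

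At a wider scale the chromosomes were divided into 10032 bins of 100 kb, and each peak was given to the bin of its centre. Most bins, 6230 or 62.1% (61.1 to 63.0%), held both marks. Of the rest, 1299 (12.9%) held H3K27ac only, 1878 (18.7%) H3K27me3 only and 625 (6.23%) neither. The share with both marks depended on the settings. It was 36.5% in bins of 50 kb, 84.2% in bins of 200 kb, 31.9% with at least 2 peaks of a mark and 6.81% with MACS2 peaks. The shifts gave means of 6112 bins with both marks (6028 to 6183), 1417 with H3K27ac only (1346 to 1501), 2011 with H3K27me3 only (1947 to 2068) and 492 with neither (435 to 556). Bins with both marks were 1.02 times and bins with neither 1.27 times as frequent as in the shifts, and bins with only one mark 0.917 and 0.934 times. All 4 values lay outside the range of the shifts, so that the marks shared or jointly missed bins slightly more often than in the shifts. With shifts of 0.1 to 1 Mb the ratios were 1.01 for both marks, 0.959 for H3K27ac only, 0.964 for H3K27me3 only and 1.13 for neither. The shifts could also move peaks into sequence where no peak can be called, and what this contributed was not tested.

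The classes differed between chromosome groups. Bins with both marks made up 60.4% of chromosomes 1 to 5, 66.7% of 6 to 10, 75.4% of 11 to 28 and 38.8% of Z. Bins with H3K27me3 alone went the other way, with 22.4, 12.5 and 5.97% in the first 3 groups, and reached 29.4% on Z. H3K27ac alone was found in 10.8, 15.3, 15.5 and 19.2% of bins, respectively. On Z, with 320 bins of both marks, 158 of H3K27ac only, 242 of H3K27me3 only and 104 of neither, every class lay within the range of the shifts. On chromosomes 1 to 5 all 4 classes lay outside it. On chromosomes 6 to 10, the 958 bins with both marks (917 to 976 in the shifts) and the 219 with H3K27ac only (201 to 260) lay inside, as did on 11 to 28 the 1301 with both (1244 to 1313) and the 267 with H3K27ac only (255 to 324). Both marks together were thus above the range on chromosomes 1 to 5 alone among the 4 groups, whereas H3K27me3-only bins were below it and empty bins above it on all but Z.

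**Figure D5:**
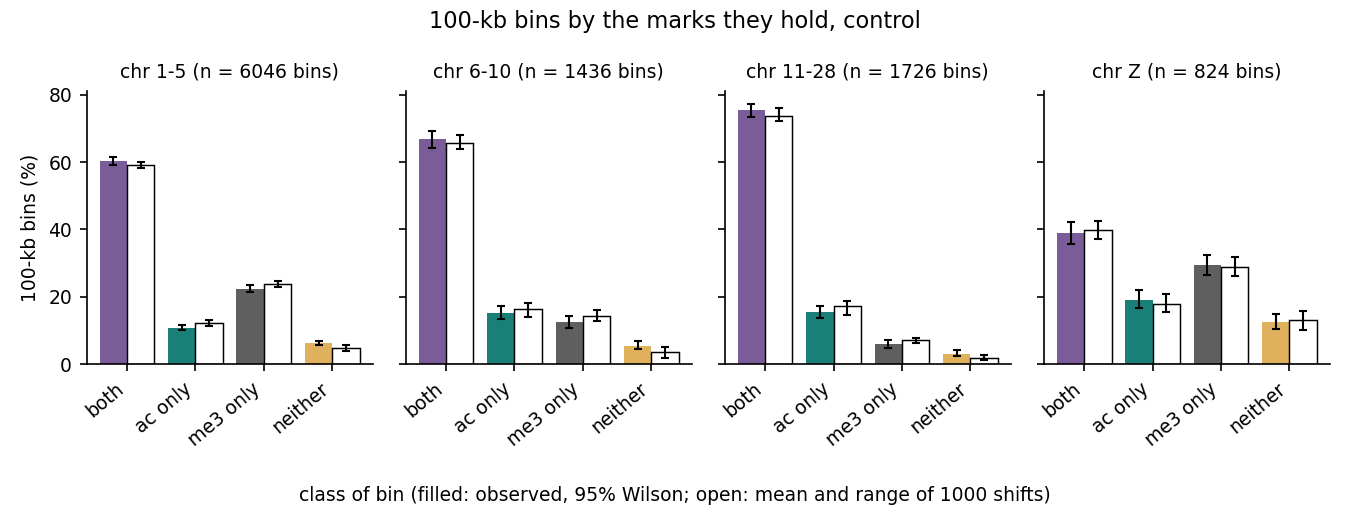
Share of 100-kb bins holding both marks, H3K27ac only, H3K27me3 only or neither, for 4 groups of chromosomes (filled bars with 95% Wilson intervals), beside the mean and range of 1000 shifts (open bars). Bins with both marks made up 75.4% on chromosomes 11 to 28 and 38.8% on Z, and on Z all 4 classes lay inside the range of the shifts.

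Bins with both marks contained 83.2% of the H3K27ac and 79.7% of the H3K27me3 peaks, with means of 4.20 and 2.50 per bin. A bin with H3K27ac only held 4.07 peaks on average, and 407 of the 1299 held a single one. A bin with H3K27me3 only held 2.11 on average, and 765 of the 1878 a single one. The numbers of the marks per bin were nearly unrelated, with a Pearson correlation of 0.0766 and a rank correlation of 0.140 over all bins. By group the rank correlation was 0.163 on chromosomes 1 to 5, 0.142 on 6 to 10, 0.0652 on 11 to 28 and -0.0191 on Z. With all chromosomes pooled, bins with more H3K27me3 peaks were mostly more often acetylated somewhere, though no shifts were set beside these shares. H3K27ac was present in 67.5% of bins without H3K27me3, in 72.0% with 1 such peak and in 91.8% with 6, and in 86.3% with 7 or more. Of the bins with H3K27me3 only, 35.4% held a MACS2 H3K27ac peak, where positions could be placed, compared with 92.5% of the bins with both marks and 30.8% of those with neither.

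The FGF2 libraries, which played no part in forming the classes, were read over the same bins. Their Homer lists were longer, with 32518 H3K27me3 peaks against 20827 in control and 37405 H3K27ac peaks against 32725. Counts with FGF2, in this and the following paragraphs, are not adjusted for this. H3K27me3-only bins were H3K27me3-only with FGF2 in 38.1% of cases, where 15.9% of all bins had that class. Bins without any mark in control were empty with FGF2 in 121 of 625 cases (19.4%), where 2.91% of all bins were. For bins with H3K27ac only, 13.8% had the same class with FGF2 against 6.78% of all. Both marks were held by 75.1% of them, near the 74.4% of all bins. Bins with both marks held both again in 84.1% of cases, against 74.4% of all. Each class recurred more often than its share of all bins, with 1 library per mark on each side.

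The bins with the most H3K27ac and no H3K27me3 lay mainly on microchromosomes. On chromosome 5, the bin from 38200001 to 38300000 (galGal4) held 25 H3K27ac peaks, and FGF2-treated tissue had 25 H3K27ac and 0 H3K27me3 peaks there. A bin of chromosome 21 from 700001 to 800000 also held 25, and with FGF2 12 H3K27ac and 3 H3K27me3 peaks. Bins of chromosome 24 from 1800001 to 1900000 and from 4000001 to 4100000, and of chromosome 26 from 2000001 to 2100000, held 24 each, and with FGF2 22, 24 and 25 H3K27ac and 1, 6 and 0 H3K27me3 peaks. MACS2 reported 18 to 22 H3K27ac and 0 H3K27me3 peaks in each of these 5 bins. Among all bins, 142 (1.42%) held 10 or more H3K27ac peaks without any H3K27me3.

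The bins with the most H3K27me3 and no H3K27ac were concentrated on chromosomes 13 and 27, which held 4 of the first 5. On chromosome 13, the bin from 1100001 to 1200000 held 20 H3K27me3 peaks, that from 200001 to 300000 held 17 and that from 1 to 100000 held 9. With FGF2 the same 3 bins held 20, 15 and 9 H3K27me3 peaks and 0 H3K27ac peaks. On chromosome 27, the bin from 3500001 to 3600000 held 20 H3K27me3 peaks, and with FGF2 20 H3K27me3 and 1 H3K27ac. The remaining bin lay on chromosome 1, from 157300001 to 157400000, with 9 H3K27me3 peaks, and with FGF2 it held 4 H3K27me3 and 1 H3K27ac. MACS2, which called few H3K27me3 peaks in control, reported 13, 8 and 5 in the bins of chromosome 13 and 6 in that of chromosome 27. It also reported 1 H3K27ac peak in the chromosome 13 bin from 1100001, 0 in those from 200001 and from 1, and 1 in the chromosome 27 bin. Only 91 bins (0.907%) held 5 or more H3K27me3 peaks and no H3K27ac. Genes in these bins are not named, because no galGal4 annotation was used.

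Bins rich in both marks were found on chromosomes 2, 25, 6 and 20. The bin of chromosome 2 from 67000001 to 67100000 held 9 H3K27ac and 10 H3K27me3 peaks, and that of chromosome 25 from 500001 to 600000 held 10 and 9. On chromosome 6, bins from 16800001 to 16900000 and from 22500001 to 22600000 held 20 and 15 H3K27ac peaks with 8 H3K27me3 peaks each. On chromosome 20, the bin from 9300001 to 9400000 held 13 and 8. With FGF2 these 5 bins held 8 to 21 H3K27ac and 5 to 12 H3K27me3 peaks. In control, MACS2 reported 8 to 21 H3K27ac peaks in them, but only 1, 3, 0, 4 and 0 H3K27me3 peaks, in the order given. Where positions could be placed, 7.93% of all bins and 10.1% of those with both marks held any MACS2 H3K27me3 peak. The high numbers of H3K27me3 peaks given for these bins are those of Homer. In all, 257 bins (2.56%) held 5 or more peaks of each mark.

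Neighbouring bins of one class were joined into runs, and no shifts were set beside these. Most runs were short, with a median of 2 bins for both marks and 1 bin for each other class. Single bins made up 748 of 1853 runs with both marks and 876 of 1064 with H3K27ac only. They made up 853 of 1230 runs with H3K27me3 only and 436 of 512 empty runs. The longest run with both marks spanned 47 bins on chromosome 5, from 53800001 to 58500000, with 293 H3K27ac and 160 H3K27me3 peaks. Runs of 32 bins on chromosome 17 (200001 to 3400000) and of 27 bins on chromosome 1 (79100001 to 81800000) followed. Runs of 5 bins or more numbered 24 for H3K27me3 only and 3 for H3K27ac only. The longest covered 15 bins of chromosome Z, from 75400001 to 76900000, with 30 H3K27me3 peaks, and held 75 H3K27me3 and 2 H3K27ac peaks with FGF2. The H3K27me3 list of FGF2-treated tissue was longer as a whole. A run of 11 bins on chromosome 2 (72700001 to 73800000) held 16 H3K27me3 peaks, and 1 of 9 bins on chromosome 1 (100200001 to 101100000) held 20. For H3K27ac only, the longest was 6 bins on chromosome 6 (11900001 to 12500000) with 13 peaks, then 5 bins each on chromosome 4 (56800001 to 57300000) and on Z (8400001 to 8900000), the latter with 32 peaks. With FGF2 these 3 runs held 10, 12 and 24 H3K27ac and 7, 11 and 16 H3K27me3 peaks. The longest empty run was 10 bins on chromosome 5 (46700001 to 47700000), where FGF2-treated tissue had 2 H3K27ac and 0 H3K27me3 peaks. Runs of 6 empty bins lay on chromosome 2 at 32800001 to 33400000 and at 135100001 to 135700000, and the latter was empty with FGF2 as well.

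Stretches of successive peaks of one mark were looked for after the data were seen. On Z, 74 H3K27me3 peaks followed each other without an H3K27ac peak between them, from 75069645 to 78460770, or 1 in every 45.8 kb. The 38 H3K27me3 peaks at the start of chromosome 13 (5408 to 335414) were spaced at 8.68 kb, and the 37 on chromosome 27 (3520530 to 3653077) at 3.58 kb. With FGF2 these 3 stretches held 163, 40 and 34 H3K27me3 and 9, 1 and 0 H3K27ac peaks. MACS2 reported 20 and 15 control H3K27me3 peaks and 0 H3K27ac peaks in those of chromosomes 13 and 27, but 8 H3K27me3 and 10 H3K27ac peaks in that of Z. The longest H3K27ac stretches held 60 peaks on chromosome 23 (4801562 to 5251312), 53 on chromosome 24 (3987414 to 4228545) and 48 on chromosome 20 (12073932 to 12378587), and there MACS2 reported 68, 53 and 41 H3K27ac and 0 H3K27me3 peaks. Such long stretches were rare, since 58.8% of the H3K27me3 and 43.1% of the H3K27ac stretches were 1 peak long.

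The loci that the study examined were then placed among the bins, with peaks counted in the 100-kb bin that holds each. The study showed these loci as examples of H3K27ac gained, lost or little changed with FGF2 in these same libraries. Their counts in control and with FGF2 are therefore not independent of that choice. In control, 7 of the 9 bins held both marks, where 62.1% of all bins did. In windows of 100 kb centred on each locus, added after the data were seen, the number was 8 of 9. Pax6, a paired-box transcription factor of eye, lens and neural development, lay in a bin with 9 H3K27ac and 7 H3K27me3 peaks, and only 18 bins (0.179%) had at least as many of each. Of its 7 H3K27me3 peaks, 3 overlapped H3K27ac and the others lay 0.187, 0.638, 3.38 and 12.2 kb away. Foxi3, a forkhead factor of placode progenitors, lay in a bin with 6 of each mark, and 88 bins (0.877%) had at least 6 of each. There 3 H3K27me3 peaks overlapped H3K27ac and 3 lay 3.64 to 4.59 kb from it. The bin of Cxcl14, a chemokine gene, held 5 H3K27ac and 6 H3K27me3 peaks, but none overlapped and the distances ran from 2.48 to 30.3 kb. At Pax6 and Foxi3 the marks were thus interleaved, and at Cxcl14 they lay apart within the bin.

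The bins of Dlx5/6, a pair of homeobox genes of the placodal and neural plate border, and of Gata3, a zinc finger factor of the ectoderm and later the inner ear, each held 9 H3K27ac and 3 H3K27me3 peaks. No H3K27me3 peak at Dlx5/6 overlapped H3K27ac (0.840 to 10.9 kb away), and 1 at Gata3 did. Gata3 lies at the edge of its bin. In the centred window there were 6 H3K27ac and 9 H3K27me3 peaks, so that which mark was more numerous depended on the window. Eya2, a co-activator of homeodomain factors in placode precursors, had 5 H3K27ac and 2 H3K27me3 peaks, the latter 3.39 and 24.8 kb from H3K27ac.

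The bins of the genes of FGF feedback and of early anterior ectoderm held fewer H3K27ac peaks in control than those of the loci above. The study named Spry1, Spry2 and Hesx1 for a gain of H3K27ac with FGF2 in these libraries. Low counts in control are not independent of that choice. Among all 10032 bins such counts were common. At least as many peaks of each mark were held by 5371 bins for Spry1, 3484 for Spry2 and 7529 for Hesx1. The bin of Spry1, an antagonist of FGF signalling, held 0 H3K27ac and 2 H3K27me3 peaks, which lay 45.0 and 52.5 kb from the nearest H3K27ac. The centred window held 1 and 2, and so both marks. With FGF2 the bin held 15 H3K27ac and 1 H3K27me3, and the window 13 and 2. The bin of Spry2, another such antagonist, held 3 H3K27ac peaks and 1 H3K27me3 peak that overlapped H3K27ac, and with FGF2 7 and 0. Its centred window held 4 and 1, and with FGF2 12 and 0. The window of Eya2 also held 4 H3K27ac peaks in control, so that the difference between bins did not hold there. Hesx1, a homeobox gene of the anterior ectoderm, had 1 H3K27ac and 0 H3K27me3 peaks in its bin, but 0 of either in the centred window. With FGF2 both held 4 H3K27ac and 0 H3K27me3 peaks. The Foxi3 bin held 23 H3K27ac and 8 H3K27me3 peaks with FGF2, that of Cxcl14 held 12 and 4, and that of Pax6 held 6 and 9. At Dlx5/6 the bin held 8 and 2 with FGF2, against 9 and 3 in control. Its centred window held 5 and 2, against 7 and 2. The Gata3 bin held 3 and 6 with FGF2, against 9 and 3, but its window 4 and 8, against 6 and 9. The direction of H3K27me3 at Gata3 thus depended on the window, and at Dlx5/6 neither count rose. At both loci the study described less H3K27ac and more H3K27me3 with FGF2 from browser views of signal. Numbers of peaks do not measure signal, so the counts do not bear on that description. The Eya2 bin held 5 and 2 in both conditions. Whether the pool held only pPPR cells could not be read from peak positions, and it was not tested.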

How the data were processed

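Chromatin of control and FGF2-treated explants was analysed from deposited peak lists. The authors aligned the reads to galGal4 with Novoalign and called peaks against input with Homer (fold over input 1.5, FDR 0.01) and MACS2 (FDR 0.05). The deposited lists give start and end positions, not counts or signal. The members, chromosome groups and regions were chosen with earlier results of these data known.

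Homer peaks on chromosomes 1 to 28 and Z were used. Peaks overlapped when they shared at least 1 bp. Random shifts (1000, or 100 for alternatives and pairs of lists) were drawn with seed 20. In the control MACS2 lists, coordinates beyond 100 Mb (chromosomes 1 to 3) are rounded, so that 4432 H3K27ac and 174 H3K27me3 peaks were left out. Named regions were the 5 bins with the most peaks of 1 or of both marks, the 3 longest runs of bins of each class, the 3 highest and 3 lowest chromosomes and the 9 loci that the study names. Positions of Spry2, Pax6, Dlx5/6, Gata3 and Eya2 were read from the scale of the study's browser views, and the others are those of cloned elements. On simulated peaks, 2023 of 2023 distances were recovered. Alternatives covered the caller, the overlap, the bin size, the shifts and the chromosomes. Lists of putative enhancers, AP1 sites and DREiVe regions were not used here, and reads and signal tracks were not analysed. Computations used numpy 2.4.6 and scipy 1.17.1 in Python 3.11.15, and plots matplotlib 3.10.9. Coordinates are galGal4, counted from 1.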

Additional observations from a re-analysis of the deposited data

Results flagged for a closer look

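Beyond the chromosomes compared above, the control lists held 1283 H3K27ac and 1256 H3K27me3 peaks on W, linkage groups and unplaced sequences, which no comparison used. They lay on 1707 sequences, of which 129 carried both marks. The marks were nearly equal in number there, at 1.02 H3K27ac peaks for each H3K27me3 peak against 1.61 on chromosomes 1 to 28 and Z. Of the H3K27me3 peaks, 87 (6.93%, 5.65 to 8.47%) overlapped an H3K27ac peak. No shifts were made on these sequences.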

How the results depend on the processing

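No paired analysis was possible because each mark and condition had 1 library. Of the alternatives to main results, 15 stayed within counting error, 51 moved and 1 changed direction by construction. The cause was not tested, apart from the construction of the bins. The share of H3K27me3 peaks overlapping H3K27ac was 33.1% with MACS2 peaks of both marks, 18.3% with MACS2 H3K27ac and Homer H3K27me3, 9.37% with the H3K27ac peaks that both callers reported, 12.5% on chromosomes 1 to 5, 21.0% on chromosomes 11 to 28, and 12.7% when the overlap had to cover most of the H3K27me3 peak or hold its centre. The median distance in the same order, without the last, was 4.77, 9.28, 22.2, 16.4 and 5.13 kb, and 14.0 kb from centre to centre. With the first 5 of 10 parts of both lists, chosen after the data were seen, overlap was 8.15% and the median 36.0 kb. The ratio of overlap to shifts was 2.78 with shifts of 0.1 to 1 Mb, 2.15 with MACS2 H3K27ac and Homer H3K27me3, and 3.20 with the first 5 parts.

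Bins with both marks, H3K27ac only, H3K27me3 only and neither made up 36.5, 21.9, 22.5 and 19.2% at 50 kb, and 84.2, 4.24, 10.5 and 1.06% at 200 kb. With at least 2 peaks of a mark they were 31.9, 22.8, 21.7 and 23.6%, with MACS2 peaks 6.81, 71.3, 1.10 and 20.8%, and with the first 5 parts of the lists 29.9, 19.8, 24.5 and 25.8%. With MACS2 H3K27ac and Homer H3K27me3 the first 3 classes were 63.9, 14.2 and 16.02%. Without overlapping H3K27me3 peaks, also chosen after the data were seen, the first 2 were 57.7 and 17.3%, and their ratios to the shifts 0.970 and 1.12. More peaks are lost from the observed than from the shifted sets in this setting, which by construction lowers the first ratio and raises the second, and nothing is read from it. The ratio for both marks was 1.05 at 50 kb, 1.00 at 200 kb, 1.07 with at least 2 peaks, 1.08 with MACS2 and 1.08 with the first 5 parts. Density on chromosomes 11 to 28 over 1 to 5 was 2.68 for H3K27ac and 1.70 for H3K27me3 with MACS2, and 2.52 for H3K27ac when set over chromosomes 1 to 10. Read depth, peak height and the spread between replicates limit every value and are unknown from these lists.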
